A study of Mus musculus with 6 samples.

Results

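Collagens are the triple-helical proteins of the extracellular matrix, and this account covers every collagen chain gene listed for cultured CD31-positive cells of mouse liver. The members are the 31 of 13595 genes whose symbol has the form of a collagen chain (Col, type number, a, chain number). They belong to 20 collagen types and were grouped by structure into 11 fibrillar chains, 8 basement membrane chains (types IV, XV and XVIII), 3 chains of the beaded filament type VI, 4 FACIT chains, 2 transmembrane chains and 3 chains of other types. FACIT stands for fibril-associated collagens with interrupted triple helices.

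RNA of 6 libraries was sequenced, 3 labelled male and 3 labelled female, with replicate numbers 4, 5 and 6 in each group. Both groups were primary cells selected for the endothelial surface protein CD31 from livers of C57BL6/J mice aged 4 weeks. Cultures of both sexes received the same treatment, 100 µM indoxyl sulfate, which activates the aryl hydrocarbon receptor, together with 6 hours of hypoxia and nutrient deprivation. Sex under that treatment is therefore the contrast, and control cultures without indoxyl sulfate were not analysed here. Whether a replicate is a mouse, an isolation or a culture well is not stated in the sources used here, so p-values measure the spread between these libraries, which may be technical.

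A collagen molecule is a trimer of chains, and each chain carries a glycine in each of its short repeats, which lets the chains wind into a helix. Fibrillar collagens assemble into the load-bearing fibres that accumulate in liver scars. Type IV forms the sheet of the basement membrane under endothelium, types XV and XVIII sit on it and release the anti-angiogenic fragments restin and endostatin, and type VI forms beaded microfilaments around cells. In liver the main producers of fibrillar collagen are stellate cells and fibroblasts, and sinusoidal endothelium lies on a sparse matrix.

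The libraries held between 22303270 and 31189363 reads, so that a normalized read count of 0.106 to 0.142 stands for 3 reads. Male 4 stood apart from the other libraries of its group over all genes, with a chi-square statistic per gene (near 1 for sampling alone) of 43.6 and 45.4 against male 5 and male 6. That statistic was 5.98 between male 5 and male 6 and ran from 4.35 to 9.59 among the female-labelled libraries. The labels were checked with genes of the sex chromosomes. Xist, the RNA of X inactivation, lay between 234 and 324 in the female-labelled libraries and between 0.124 and 0.458 in the male-labelled ones. All 4 Y-linked genes examined were nonetheless read in every female-labelled library. Ddx3y (48.5 to 57.7 there, against 47.2 to 76.3) and Uty (22.2 to 27.7, against 23.7 to 32.0) overlapped the male-labelled libraries. Eif2s3y (29.4 to 30.2, against 55.3 to 61.2) and Kdm5d (17.6 to 20.8, against 30.7 to 37.5) were lower. Transcripts of the Y chromosome in libraries labelled female go against that label, and every direction below rests on the labels.

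Most collagen chains differed between the groups, and they did so in both directions. Of the 31 chains, 24 reached a normalized read count of at least 1 in at least 3 libraries and were tested with limma over all genes, on log2(value + 1). At an adjusted p under 0.05, 23 were called (8 higher and 15 lower in females as labelled), where 69.3% of all 12568 tested genes were called. Read by direction, 34.6% of all genes were called higher and 34.6% lower. The groups did not overlap for 23 of the 24 chains, and for 74.1% of all genes. The median log2 fold change was -1.33 over the 24 chains and 0.01 over all genes tested, and the median of its absolute size was 1.59 and 0.46. A log2 fold change of 1 or more in either direction was reached by 20 called chains, against 20.6% of all genes, and one of at least 3 by 6 called chains, against 1.70%. These 6 were Col6a1, Col6a2, Col6a3, Col15a1, Col18a1 and Col14a1, all lower. With a pseudocount of 0.1 (-3.42), edgeR (-3.50), DESeq2 (-3.51) or voom (-3.50), Col23a1 also fell by that much, which made 7. In bulk RNA, fewer cells of a type and less RNA per cell cannot be told apart, which holds for each chain here. Col24a1 passed the minimum through its male values, with 1 library labelled female at 1 or above.

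**Figure D1:**
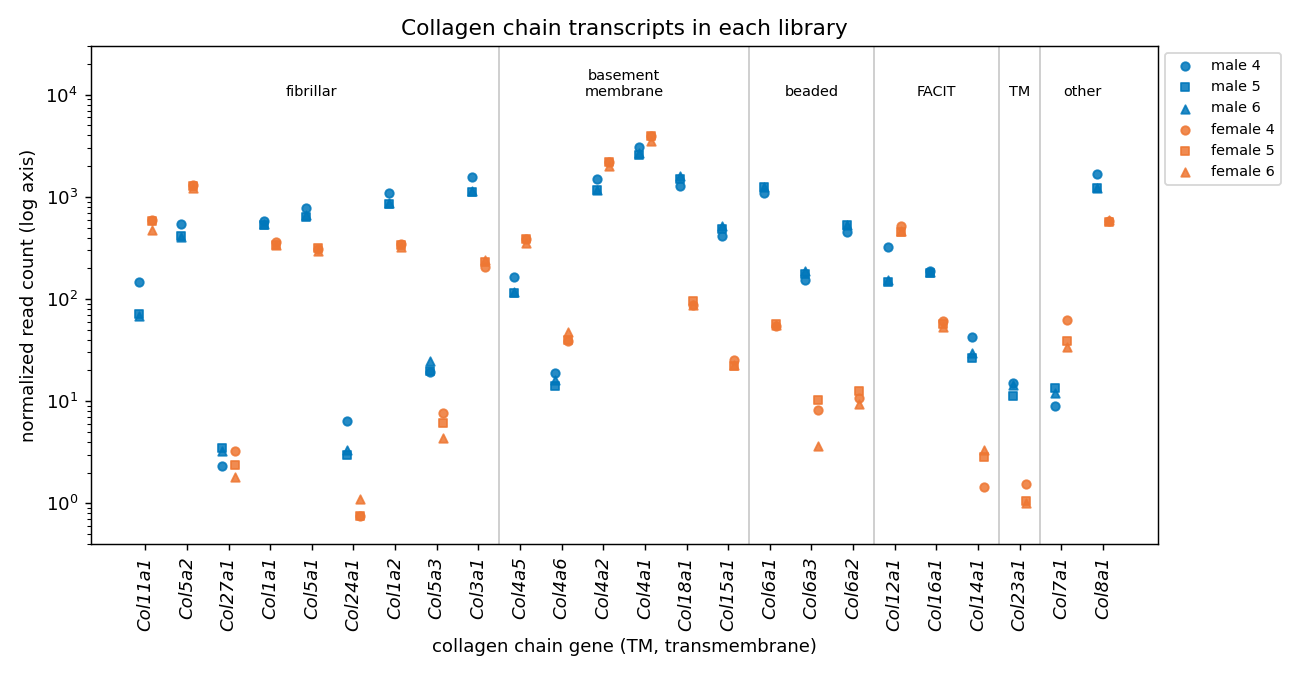
Normalized read count (log axis) of the 24 tested collagen chains in each library, grouped by collagen class, with blue points for libraries labelled male and orange for the female-labelled ones. The groups stand apart for 23 chains and overlap for Col27a1.

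The libraries labelled female had far less RNA for the chains of type VI, and all 3 listed chains were called lower. Type VI is a heterotrimer of its alpha 1, alpha 2 and alpha 3 chains and links cells to the surrounding interstitial matrix. Col6a1 was read at 1101, 1246 and 1261 in the male-labelled libraries and at 54.2, 56.9 and 56.0 in the female-labelled ones. Col6a2 stood at 454, 534 and 533 against 10.7, 12.5 and 9.45. Col6a3, whose long chain carries most of the globular domains, stood at 152, 177 and 188 against 8.26, 10.3 and 3.61. No library of one group came near the other group for any of the 3 chains. The group means differed 21.6-fold for Col6a1, 46.5-fold for Col6a2 and 23.4-fold for Col6a3. In limma the log2 fold changes were -4.41 (SE 0.07, adjusted p 4.74e-09), -5.42 (SE 0.11, adjusted p 1.03e-08) and -4.47 (SE 0.29, adjusted p 3.07e-06), in that order. Col6a1 and Col6a2 are neighbours on chromosome 10 in RefSeq (GRCm38.p6), whereas Col6a3 lies on chromosome 1.

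The 150 bases before the RefSeq gene start of each are shown because these chains fell together. All are on the minus strand of GRCm38.p6, at chr10:76726045-76726194 for Col6a1, chr10:76623631-76623780 for Col6a2 and chr1:90844002-90844151 for Col6a3. Capitals would mark a match on either strand to TATAAA of the core promoter, to CCAAT of the box bound by the factor NF-Y, to GGGCGG of the GC box, to GCGTG of the aryl hydrocarbon receptor element or to ACGTG of the hypoxia element, and these 3 stretches hold 0 matches. The full RefSeq windows of Col6a2, which has more than one listed start, do hold GGGCGG and GCGTG.
Col6a1: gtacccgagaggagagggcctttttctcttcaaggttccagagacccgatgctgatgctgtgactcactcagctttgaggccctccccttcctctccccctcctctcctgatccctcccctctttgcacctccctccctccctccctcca
Col6a2: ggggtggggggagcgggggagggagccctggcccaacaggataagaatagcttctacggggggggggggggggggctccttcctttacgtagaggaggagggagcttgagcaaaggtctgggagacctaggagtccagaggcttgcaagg
Col6a3: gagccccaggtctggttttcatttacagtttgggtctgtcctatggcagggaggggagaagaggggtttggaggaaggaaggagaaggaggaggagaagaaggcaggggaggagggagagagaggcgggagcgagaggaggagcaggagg
Their GC content was 60.0%, 64.7% and 59.3%.

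Basement membrane collagens split by type. Chains of type IV were higher and those of types XV and XVIII lower in the female-labelled libraries. Col4a1 and Col4a2 encode the chains of the common type IV trimer. Col4a1 stood at 3072, 2554 and 2663 in the male-labelled libraries and at 3927, 3901 and 3532 in the female-labelled ones. Col4a2 stood at 1511, 1175 and 1180.1 against 2204, 2180.1 and 2014. Both ranges were apart, but the differences were small, at 1.37-fold for Col4a1 and 1.65-fold for Col4a2. Their limma log2 fold changes were 0.46 (SE 0.10, adjusted p 0.00274) and 0.74 (SE 0.11, adjusted p 0.000361).

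The pair is transcribed in opposite directions on chromosome 8, and the genes overlap at their starts. In the RefSeq promoter table the start of Col4a1 (minus strand) and that of Col4a2 (plus strand) lie 21 bases apart. Col4a1 runs down from 11312826 and Col4a2 runs up from 11312805, so the stretch from one start to the other is transcribed in both genes. This stretch, chr8:11312805-11312826 of GRCm38.p6, is shown on the plus strand because both genes share it, with capitals marking the letters GGGCGG.
Col4a1 and Col4a2: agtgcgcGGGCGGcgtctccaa

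Col4a5 and Col4a6, the other pair listed well above the detection limit, encode chains found in specialised basement membranes and lie side by side on the X chromosome. They are the 2 X-linked members in this contrast of sex, and their RefSeq starts are 1343 bases apart. Col4a5 was read at 164, 114 and 117 in the male-labelled libraries and at 385, 386 and 357 in the female-labelled ones. Col4a6 stood at 19.0, 14.1 and 16.0 against 39.3, 39.5 and 47.2. All 3 libraries labelled female were above all 3 labelled male for both chains. The levels differed 2.86-fold and 2.57-fold, with limma log2 fold changes of 1.53 (SE 0.13, adjusted p 1.56e-05) and 1.31 (SE 0.12, adjusted p 2.48e-05).

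The remaining type IV pair, Col4a3 and Col4a4, which with Col4a5 builds the filtration barrier of the kidney, was near the detection limit and below the minimum for the limma test. Col4a3 held 6, 7 and 6 reads in the male-labelled libraries and 31, 16 and 10 in the female-labelled ones. Col4a4 held 4, 2 and 3 reads against 18, 18 and 21. On the reads, edgeR gave log2 fold changes of 1.76 (adjusted p 0.00856) and 2.82 (adjusted p 0.000267), where 68.0% of the genes it tested were called. Reads of 10 or more occurred in the female-labelled libraries alone for both chains, so that group decided whether they were tested.

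Types XV and XVIII are proteoglycan collagens of vascular basement membranes, and their RNA was many times lower in the female-labelled libraries. Col18a1, the source of endostatin, stood at 1284, 1481 and 1585 in the male-labelled libraries and at 88.1, 95.8 and 88.4 in the female-labelled ones. Col15a1 stood at 414, 483 and 514 against 25.5, 21.9 and 22.7. The gap between the groups was larger than the range within either. The means differed 16.0-fold and 20.1-fold, with limma log2 fold changes of -3.98 (SE 0.08, adjusted p 1.50e-08) and -4.27 (SE 0.09, adjusted p 1.71e-08). Of the 8 basement membrane chains, 4 were thus called higher, 2 lower and 2 were not tested.

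The sequence before the upstream RefSeq start of Col18a1, chr10:77166531-77166680 on the minus strand of GRCm38.p6, is shown because this chain fell most in absolute level among the basement membrane chains. It holds 3 matches to GGGCGG, in capitals as their reverse complement. The window before Col11a1, chr3:114030329-114030478 on the plus strand, is shown as that of the chain with the largest called increase among the 24, and holds GGGCGG and CCAAT, the latter as its reverse complement.
Col18a1: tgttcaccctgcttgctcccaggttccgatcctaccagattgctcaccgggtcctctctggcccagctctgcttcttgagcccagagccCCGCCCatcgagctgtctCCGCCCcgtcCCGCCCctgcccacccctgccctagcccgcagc
Col11a1: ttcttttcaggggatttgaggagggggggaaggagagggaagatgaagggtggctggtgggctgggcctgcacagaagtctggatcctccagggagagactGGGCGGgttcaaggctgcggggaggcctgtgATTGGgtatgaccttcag

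Fibrillar chains were mostly lower in the female-labelled libraries, with 6 called lower, 2 called higher, 1 not called and 2 not tested of 11. Types I and III are the bulk collagens of fibrous tissue. Col1a1 was read at 575, 535 and 546 in the male-labelled libraries and at 361, 337 and 337 in the female-labelled ones. Col1a2 stood at 1089, 853 and 869.6 against 345, 339 and 321. Col3a1, which forms the reticular fibres of the liver as a homotrimer, stood at 1553, 1115 and 1129.6 against 205, 231 and 242. The groups were apart for all 3 chains, and the difference widened from 1.60-fold for Col1a1 to 2.80-fold for Col1a2 and 5.60-fold for Col3a1. Limma gave log2 fold changes of -0.68 (SE 0.06, adjusted p 2.01e-05), -1.47 (SE 0.10, adjusted p 3.65e-06) and -2.47 (SE 0.13, adjusted p 1.03e-06).

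The chains of type V, which regulates the diameter of type I fibrils, moved in opposite directions. Col5a1 stood at 773, 642 and 668 in the male-labelled libraries and at 305, 315 and 296 in the female-labelled ones. Col5a2 stood at 545, 412 and 408 against 1299, 1284 and 1218. The groups were apart for both chains, in opposite directions. Limma gave log2 fold changes of -1.18 (SE 0.08, adjusted p 3.90e-06) for Col5a1 and 1.49 (SE 0.11, adjusted p 7.38e-06) for Col5a2. Col5a3, a further chain of the type, was lower, at 19.4, 19.8 and 24.5 against 7.59, 6.06 and 4.37 (log2 fold change -1.69, SE 0.18, limma adjusted p 4.96e-05). Col5a2 and Col3a1 are neighbours on chromosome 1 in RefSeq, and they changed in opposite directions.

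Col11a1, a chain of the cartilage-type fibrils related to type V, had the largest increase among the 24 chains tested with limma. It was read at 145, 71.2 and 67.7 in the male-labelled libraries and at 593, 581 and 471 in the female-labelled ones. Male 4 was about double the level of the other libraries of its group (2.09-fold of their mean) yet remained below each library labelled female. Limma gave a log2 fold change of 2.60 (SE 0.26, adjusted p 3.98e-05), and 2.96 without male 4. Col24a1, a minor fibrillar chain, was scarce and lower, at 6.47, 2.97 and 3.32 against 0.747, 0.751 and 1.09 (log2 fold change -1.44, SE 0.23, limma adjusted p 0.000631). Its value was -2.11 with a pseudocount of 0.1, -2.20 in voom, -2.31 in edgeR and -2.32 in DESeq2. Col27a1, another minor fibrillar chain, overlapped between the groups, at 2.32, 3.47 and 3.25 against 3.28, 2.39 and 1.80, and was the single tested chain without a call (limma log2 fold change -0.21, SE 0.18, adjusted p 0.328).

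**Figure D2:**
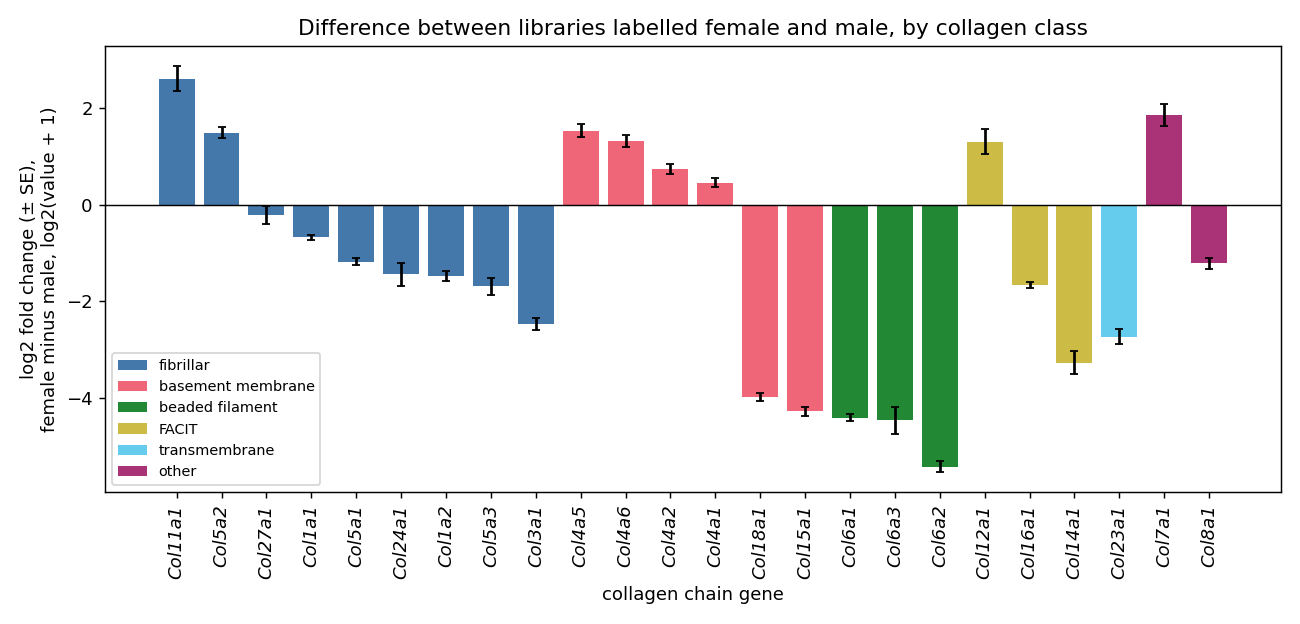
Log2 fold change of the 24 tested chains, libraries labelled female minus male on the log2(value + 1) scale, with bars coloured by collagen class and whiskers for the SE of limma. Type VI, XV and XVIII chains lie at -3.98 or below, and chains of type IV lie above 0.

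Among the FACIT chains, which sit on the surface of fibrils, 1 was called higher, 2 lower and 1 was not tested. Col14a1 stood at 42.5, 26.5 and 29.7 in the male-labelled libraries and at 1.45, 2.83 and 3.32 in the female-labelled ones (limma log2 fold change -3.27, SE 0.24, adjusted p 6.28e-06). Col16a1 stood at 190.1, 178 and 183 against 61.5, 57.6 and 53.8 (limma log2 fold change -1.66, SE 0.07, adjusted p 2.67e-07). Both groups were narrow for Col16a1, with SDs of 5.91 and 3.89. Col12a1 went the other way, at 321, 148 and 153 against 520.0, 455 and 464, and male 4 again stood at 2.13-fold of the mean of male 5 and male 6. Limma gave it a log2 fold change of 1.30 (SE 0.26, adjusted p 0.00220), and 1.66 without male 4.

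Of the remaining types, Col8a1 forms hexagonal networks in the vessel wall and was among the most abundant collagen RNAs of the male-labelled libraries. It stood at 1656, 1223 and 1212 there and at 577, 572 and 593 in the female-labelled libraries, a 2.35-fold difference (limma log2 fold change -1.21, SE 0.12, adjusted p 3.19e-05). Col7a1, the chain of the anchoring fibrils below epithelia, was higher, at 8.96, 13.3 and 11.9 against 62.5, 39.0 and 33.6 (limma log2 fold change 1.86, SE 0.23, adjusted p 0.000121). Female 4 was the highest library for Col7a1, and the lowest of its group remained above all libraries labelled male. Col23a1, a transmembrane collagen, was lower, at 15.2, 11.2 and 14.5 against 1.54, 1.06 and 0.997 (limma log2 fold change -2.73, SE 0.15, adjusted p 1.28e-06).

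Apart from Col4a3 and Col4a4, 5 chains lay below the minimum of the limma test. Col2a1, the cartilage collagen, held 5, 1 and 4 reads in the male-labelled libraries and 11, 8 and 7 in the female-labelled ones. Col22a1, a chain of tissue junctions, held 1, 0 and 0 reads against 12, 3 and 3. Col11a2 ran from 17 to 22 reads against 10 to 15 in the less deeply read female-labelled libraries, Col28a1 from 6 to 16 against 8 to 12, and the transmembrane chain Col13a1 from 1 to 11 against 0 to 12. Normalized values of Col11a2, Col28a1 and Col13a1 overlapped between the groups. With no minimum, limma called Col2a1 (adjusted p 0.0299) in addition to Col4a3 and Col4a4, where 67.0% of all genes were called. It did not call Col22a1 (adjusted p 0.0639). DESeq2 on the reads called Col22a1 (adjusted p 0.0130) but not Col2a1 (adjusted p 0.0828), where it called 8874 of the 13595 genes.

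Male 4 differed from male 5 and male 6 in a chain-dependent way. It was above both of them for 16 of the 24 tested chains, below both for 8 and between them for 0. The share of all genes on each side was not computed, so these counts have no baseline. Relative to their mean it ran from 0.691 for Col27a1 to 2.13 for Col12a1, whereas male 5 over male 6 ran from 0.774 to 1.12. Type VI, XV and XVIII chains were lower in male 4 than in the others of its group, between 0.829 and 0.879 of their mean. Some other genes were also high in male 4. Among the 15 tested stellate, mural and fibroblast markers, male 4 was above both others for 6 and below both for 5, from 0.448 to 2.61 of their mean. Acta2 stood at 134 in male 4 against 56.4 and 45.9, Tagln at 83.6 against 40.2 and 32.5, and Cnn1 at 8.87 against 3.97 and 4.03, all genes of contractile cells. Other genes of that list did not follow. Myh11, also of contractile cells, lay between (1.74 against 1.79 and 1.41). Des (6.97 against 9.11 and 8.90) and Rgs5 (10.9 against 18.5 and 21.2) were lower in male 4. Male 4 was above both for 15 of the 18 tested genes of collagen hydroxylation, folding and export, among them the lysyl hydroxylase Plod2 at 733 against 330.2 and 337. The same held for 9 of 10 tested collagen receptors, 7 of 17 endothelial markers (below both for 5) and 1 of 7 mesothelial markers (below both for 5). The part of any of these genes in the chain differences of male 4 was not tested. Without male 4 the same 23 chains were called, in the same directions.

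The chain makeup of the collagen RNA also differed. Levels of different genes were compared after division by the length of the transcript, and each class was expressed as a share of the summed collagen level. Basement membrane chains held 40.9% ± 1.15 (SD, n = 3) in the male-labelled libraries and 60.3% ± 0.594 (SD, n = 3) in the female-labelled ones. Beaded filament chains held 18.2% ± 2.57 against 1.04% ± 0.0453, and fibrillar chains 27.3% ± 2.13 against 28.2% ± 0.162. Shares of the first 2 classes were apart in all libraries, whereas those of fibrillar chains overlapped. Per coding length the fibrillar shares did not overlap, at 25.4% to 28.3% against 28.5% to 28.6%. Within the fibrillar share the leading chain changed, from Col3a1 (9.34% ± 1.17) and Col1a2 (7.21% ± 0.507) in the male-labelled libraries to Col5a2 (11.7% ± 0.114) and Col11a1 (4.35% ± 0.352) in the female-labelled ones. Col4a1 ranked first in both groups, with 17.2% ± 0.507 and 34.9% ± 0.553. Col6a1 went from rank 2 to rank 13 of 31, and Col18a1 from rank 4 to rank 12. Divided by coding length instead, Col8a1, whose transcript is mostly untranslated, ranked first in the male-labelled libraries with 18.0% and Col4a1 next with 16.3%.

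**Figure D3:**
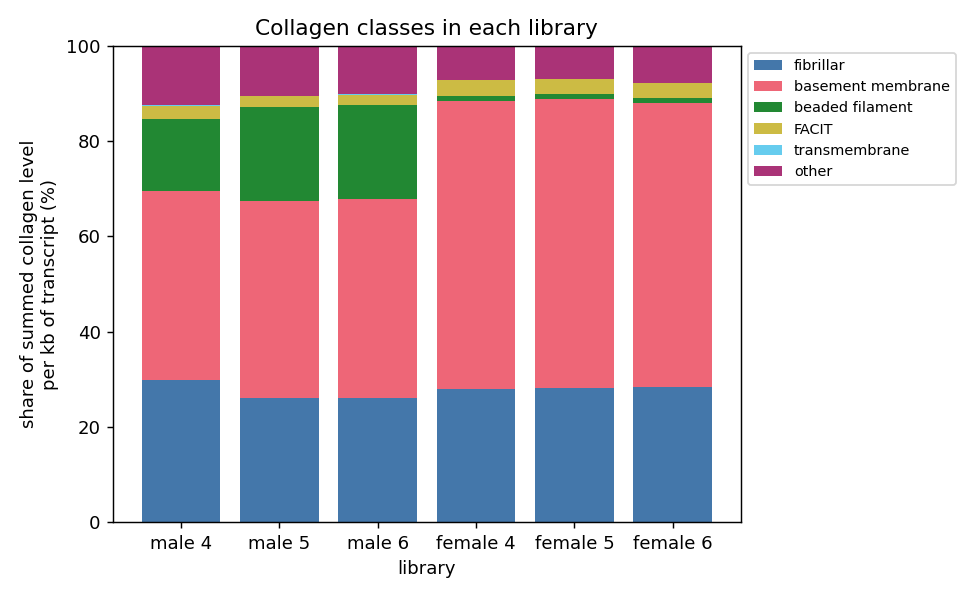
Share of each collagen class in the summed collagen level per kb of transcript (%), 1 bar per library. Basement membrane chains hold between 39.7% and 42.0% in the male-labelled libraries and between 59.6% and 60.8% in the female-labelled ones, and beaded filament chains shrink to about 1% there.

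As a share of all normalized reads, collagen chains together took 1.24% ± 0.0606 (SD, n = 3) in the male-labelled libraries and 1.02% ± 0.0491 (SD, n = 3) in the female-labelled ones. The summed value of all 31 chains lay between 13035 and 15117 against 10173 and 11091. For basement membrane chains the sums overlapped, at 5822 to 6464 against 6063 to 6671, with type IV gains beside the losses of types XV and XVIII. For type VI they lay between 1708 and 1982 against 69.1 and 79.7.

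Trimers are built from chains in set proportions, so the ratio of partner chains was computed within each library, per coding length. For type V, Col5a1 over Col5a2 was 1.16, 1.27 and 1.33 in the male-labelled libraries and 0.192, 0.200 and 0.198 in the female-labelled ones. For type I, Col1a1 over Col1a2 was 0.499, 0.592 and 0.593 against 0.989, 0.937 and 0.992. Both ratios moved well past the spread of the libraries, the first from above 1 to below 1 and the second upwards. These RNA ratios were not set against the proportions of chains in the trimers.

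The ratio of Col6a1 to Col6a2 was 2.44, 2.35 and 2.39 in the male-labelled libraries and 5.09, 4.59 and 5.98 in the female-labelled ones. Col4a1 over Col4a2 was 2.08, 2.22 and 2.31 against 1.82, 1.83 and 1.79, a small difference with groups apart. Col4a5 over Col4a6 overlapped, at 8.64, 8.06 and 7.29 against 9.81, 9.78 and 7.56. The differences in log2 ratio were -2.67 (SE 0.06) for type V, 0.80 (SE 0.09) for type I, 1.12 (SE 0.11) for type VI, -0.28 (SE 0.04) for Col4a1 over Col4a2 and 0.17 (SE 0.14) for Col4a5 over Col4a6. Over the 5 pairs, the two-sided exact permutation p was 0.1 for the first 4 and 0.3 for the last (0.125 and 0.3 after Benjamini-Hochberg adjustment). With 3 libraries against 3 the exact test cannot go below 0.1, so none of the pairs could pass 0.05.

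**Figure D4:**
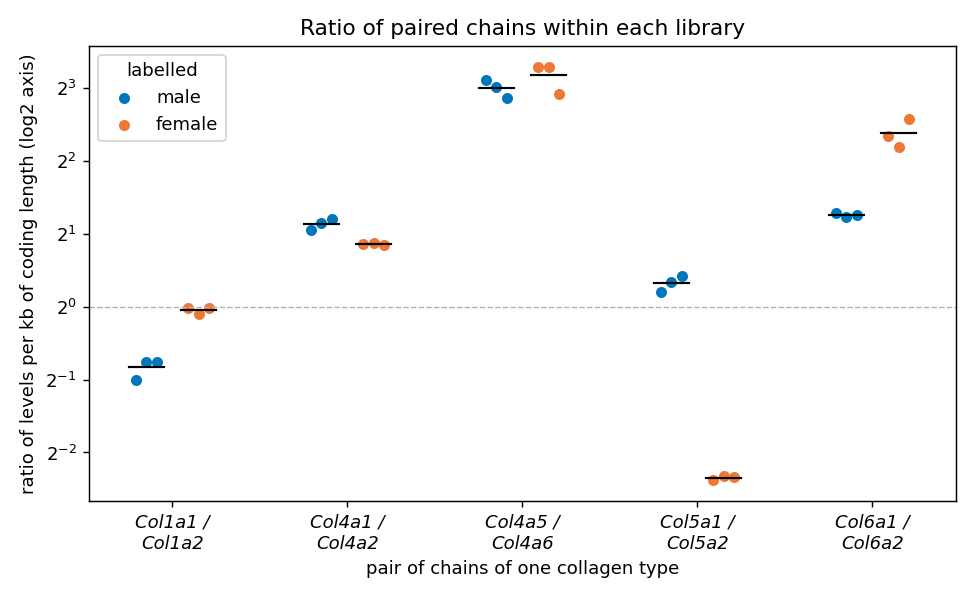
Ratio of partner chains within each library, per kb of coding length (log2 axis), with 1 point per library and a black line at the group mean. Col5a1 over Col5a2 lies above 1 in the male-labelled libraries and near 0.2 in the female-labelled ones, and Col4a5 over Col4a6 overlaps.

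RefSeq promoter windows of 300 bases (250 before and 50 after a start, GRCm38.p6) were found for 24 of the 31 chains, in 26 windows. Searched on both strands, GGGCGG, the GC box bound by Sp factors, occurred in 17 of 26 windows (65.4%) and in 35.7% of all 32851 windows. CCAAT was in 9 (34.6%, against 37.4% of all windows) and TATAAA in 3 (11.5%, against 13.6%). GCGTG, the core of the aryl hydrocarbon receptor element, was in 7 (26.9%, against 32.4%), and ACGTG, the core of the hypoxia element, in 4 (15.4%, against 19.6%). GGGCGG was in all 6 windows of chains called higher and in 9 of 15 windows of chains called lower, and CCAAT in 5 and 4 of them. The windows of Col4a1 and Col4a2 overlap, so their letters count in both, and the aryl hydrocarbon receptor and hypoxia motifs share their last letters. These matches describe letters in the windows and no binding was measured.

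Collagen chains are modified, folded and exported by a dedicated set of proteins, and these genes were also measured. Of 18 tested genes for hydroxylation, folding and export, 5 were called higher, 7 lower and 6 not called, with a median log2 fold change of -0.11. Over all genes the called share was 69.3%, at 34.6% in each direction and a median of 0.01, and the calls in these lists are to be read against it. Plod1 (-2.10) and Plod3 (-0.80), which hydroxylate lysines, were lower, whereas P4ha3 (0.63), a subunit of prolyl 4-hydroxylase, and Sec23a (0.54), a coat protein of export vesicles, were higher, all as log2 fold changes in limma. Of 12 tested genes for processing and crosslinking, 4 were called higher and 6 lower, with a median of -0.33. Lox (1.22), the main lysyl oxidase, and Pcolce2 (1.22), an enhancer of procollagen cleavage, were higher. Loxl1 (-2.75), another lysyl oxidase, and Adamts2 (-2.13), which cleaves the N-propeptide of procollagen, were lower.

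Among 10 tested collagen receptors, 3 were called higher and 6 lower, with a median of -0.29. Itgb1 (1.29), the beta chain that the collagen-binding integrins share, and the receptor kinase Ddr2 (0.82) were higher, and the alpha chain Itga1 (-2.07) and the uptake receptor Mrc2 (-2.53) were lower. Of 12 tested genes of collagen breakdown and its inhibition, 5 were called higher and 5 lower, with a median of 0.05. Fap and Mmp9 among the lower ones reached the test minimum through the male-labelled libraries alone. Timp1 (0.79), an inhibitor of metalloproteinases, and the peptidase Prep (0.71) were higher, and the inhibitor Timp3 (-1.68) and the gelatinase Mmp2 (-1.49) were lower.

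Markers of the cell types that a CD31 selection from liver could hold also differed between the groups. Of 17 tested endothelial markers, 14 were called lower and 2 higher, and their summed level was 2459 to 2573 in the male-labelled libraries and 1300.4 to 1366 in the female-labelled ones. The 2 higher ones were Ptprb (limma log2 fold change 3.47), at 4.31 to 5.43 against 57.7 to 65.4, and Eng (0.40). Pecam1, which encodes CD31, was present in all libraries at 391 to 423 against 73.5 to 74.5. Of 4 tested sinusoidal markers, 3 were called lower and 1 higher, with sums of 495 to 535 against 40.5 to 42.5. Lyve1 made up most of the male sum, at 469.7, 513 and 513 against 5.10, 5.48 and 4.37 (limma log2 fold change -6.39), Stab1 was also lower (-2.49), and Gata4, most of the female sum, was higher (2.80). The defining sinusoidal markers were near 0 in both groups, with Stab2 and Oit3 below the test minimum and Clec4g under 10 reads in each library. Robo4 and Vwf of the endothelial list and Gpr182 of the sinusoidal list, all called lower, reached the test minimum through the male-labelled libraries alone. Of 15 tested non-collagen markers of stellate, mural and fibroblast cells, 7 were called higher and 7 lower, with a median log2 fold change of 0.13 and summed levels of 458 to 582 against 2720 to 3420. Acta2 (mean 1694) and Tagln (mean 1057) held most of the female sum. Acta2 (4.57) and Myh11 (5.54), of contractile cells, were higher, and Pdgfrb (-3.13), Pdgfra (-1.61) and Dcn (-1.43), which defined the list, were lower, as log2 fold changes in limma. Lum, also defining, was lower, at 4.64, 3.62 and 2.37 against 0, 0 and 0.0950. In that list Hand2 and Mfap5 among the higher calls, and Hgf and Lum among the lower ones, reached the test minimum through 1 group alone. Des, another defining gene, was higher (0.70), and Lrat was not analysed here.

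Of 7 tested mesothelial markers, 5 were called higher and 2 lower, with overlapping sums of 485 to 599.6 against 501 to 508. Krt19 (limma log2 fold change -1.99), which is also on the cholangiocyte list, and Cldn15 (-5.24) were the lower ones, and Krt19 held most of the male sum. The defining gene Msln was higher (4.03) and held most of the female sum. The other defining genes, Wt1 at 0.0829 to 0.114 against 11.7 to 13.6 and Upk3b at 0 against 1.37 to 4.65, reached the test minimum through the female-labelled libraries alone, as did Upk1b and Gpm6a, so that 4 of the 5 higher calls had to differ. Of 6 tested cholangiocyte markers, 5 were called lower and 1 higher, with sums of 1648 to 2496 against 513 to 615. Spp1 and Krt19, both lower, held most of the sum in each group. The higher one was the defining gene Krt7 (limma log2 fold change 1.86), at 1.30 to 2.61 against 8.31 to 10.9. Epcam, also defining, was below the test minimum. Macrophage markers summed to 7.55 to 10.1 against 13.0 to 15.5 (2 tested, both called higher, with C1qa under 10 reads in each library). Hepatocyte markers summed to 1.73 to 2.21 against 0.237 to 0.332, with 0 of them reaching the test minimum. Lymphocyte markers were not analysed here. The part of any of these cell types in the collagen differences was not tested.

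In the authors' deposited table, 20 of the 31 chains passed a false discovery rate of 0.05 (6 up and 14 down in females as labelled), as did 25.8% of all its genes. Of the 24 chains tested here, 19 were among them. The chains called by limma but not in the authors' deposited table were Col1a1, Col4a1, Col4a2 and Col12a1, with false discovery rates there of 0.356, 0.246, 0.0685 and 0.118. Conversely, the authors' deposited table called Col22a1 (false discovery rate 0.0172), the chain with 1 read in all libraries labelled male and 18 in the female-labelled ones.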

How the data were processed

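Poly(A) RNA of 6 cultures was sequenced from libraries built with a Kapa HyperPrep kit, per the labels' protocols. The submitters' processing notes name the genome build mm39 and the tools Bowtie2, RSEM and edgeR, with no role. The deposited signal columns are normalized read counts in which the authors divided whole reads by 1 factor per library: 100% of values were whole multiples, within 0.01 read, of the smallest value above 0 in their column. Multiplying back gave the reads. The score column deposited by the authors is their signed linear fold change, and the p-value columns deposited by the authors hold their p and false discovery rate. How genes were chosen as detectable is not given in the sources used here.

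From these values, limma 3.58.1 (R 4.3.3, eBayes with trend) was fitted to log2(value + 1) for the 12568 genes that reached 1 in 3 or more libraries. Benjamini-Hochberg adjustment ran over all of them, with a threshold of 0.05. Fold changes on this scale understate changes of scarce genes. Means are given ± SD over 3 libraries. Ratios were tested with an exact permutation test (scipy 1.17.1). Alternatives were another filter (none, or 10 or more reads in each library), 0.1 as the pseudocount, RLE and quantile scaling, edgeR 4.0.16, DESeq2 1.42.0 and voom on the recovered reads, a fold threshold, a replicate block, and each library left out. Division by transcript length, as an alternative for ratios, and by coding length, for shares, was added after seeing the data. Scripts were tested on simulated data.

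Per-sample values were given for every chain of types I, III, IV, V, VI, XV and XVIII and, in each other class, for the 2 called chains with the largest absolute log2 fold change. Col12a1, Col27a1 and the genes named beside male 4 or as passing the minimum through 1 group were added after their values were seen. From each list of the collagen pathway (biosynthesis, processing, receptors and breakdown), the 2 largest called increases and 2 largest called decreases with a mean of at least 10 were named. Mmp13, which reached that mean in the female-labelled libraries alone, was added after its values were seen. Marker lists are given by counts and sums, with genes chosen after their values were seen. The members and lists were chosen with earlier results of these data known. Transcript and coding lengths came from GENCODE M21 (GRCm38), found for all 31 chains. Because that build is not the authors', coordinates are printed for RefSeq promoter sequences alone. At most 1.67% of a chain's 50-mers occurred in another gene's transcripts (Col3a1), and at most 5.65% of its exon bases lay in another gene's exons (Col4a3), whose reads cannot be told apart where strand was not used.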

Additional observations from a re-analysis of the deposited data

How the results depend on the processing

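The 24 tested chains were recomputed under 16 alternatives, which gave 384 values: 381 kept their direction and their side of the threshold, 3 kept their direction without a call and 0 changed direction. The 3 were Col1a1 (-0.68), Col4a1 (0.46) and Col4a2 (0.74) where a log2 fold change of 1 or more in either direction was also required. That requirement by its construction left 2589 of the 8704 calls over all genes, and 6 chains higher and 14 lower. With no filter, and with edgeR, DESeq2 and voom on reads, all 23 called chains remained and between 2 and 3 scarce chains were added. In the 6 fits that each left out a library, 8 chains higher and 15 lower were called each time. Among the tested chains, Col23a1 and Col24a1 alone moved by over 1.5 times, under a pseudocount of 0.1 and the 3 tests on reads. Leaving out male 4 moved Col11a1 from 2.60 to 2.96 and Col12a1 from 1.30 to 1.66.

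Replicate numbers gave no pairing, as the correlations between same-numbered deviations from the group means were -0.09, -0.03 and -0.17. The fit with the replicate block called 8314 genes, and 8 chains higher and 15 lower, the same 23. Differences in chain ratio cannot depend on the length used for division, because a fixed length cancels in them, so that alternative is no check. At this depth 7 chains gave between 0 and 31 reads per library, too few for a statement on most of them.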
